A study of Mus musculus with 6 samples.

Results

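Wif1 (Wnt inhibitory factor 1) and 9 other genes for secreted proteins that restrain Wnt signalling were followed in the mouse lung shortly before birth, in lungs labelled as Smad1 knockouts of the epithelium and in wild type lungs. The 10 genes are Wif1, Notum, Dkk1, Dkk2, Dkk3, Sfrp1, Sfrp2, Sfrp4, Sfrp5 and Frzb. They were found by symbol in the annotation of the array, which gave 18 of 45037 probe sets (controls left out) and 10 of 18193 genes. Wif1, Notum, Dkk2, Sfrp2 and Sfrp4 had 1 probe set each. Dkk1, Dkk3, Sfrp5 and Frzb had 2 each, and Sfrp1 had 5. Where a gene had several, the one brightest on average over the 6 arrays represents it, and the others are given beside it.

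The Smad1 CKO group held 3 C57/BL6 embryos at E18.5 with a conditional knockout of Smad1 confined to the lung epithelium, and the wild type group held 3 embryos of the same strain and stage. The mice came as 3 pairs of 1 CKO and 1 wild type animal, and total RNA of the left lung lobe was read on 1 Affymetrix Mouse430_2 array per animal. The Cre driver, the deleted part of Smad1, the alleles carried by the wild type animals and whether pairs were littermates are not stated by the labels. The values are RMA intensities, a measure of probe brightness, and a difference below is log2 Smad1 CKO minus wild type within pairs. A whole lobe holds many cell types, so fewer cells of a type and less RNA per cell cannot be told apart.

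Wnt proteins are lipid-bearing ligands that bind Frizzled receptors together with the co-receptors Lrp5 and Lrp6 and stabilise beta-catenin, which then acts on target genes with TCF and LEF factors. Secreted antagonists act before the receptor. Wif1, the secreted frizzled-related proteins (Sfrp1, Sfrp2, Sfrp4, Sfrp5) and Frzb bind Wnt proteins, the last 2 kinds through a cysteine-rich domain like that of Frizzled. Notum is an esterase that removes the lipid from Wnt proteins. Dkk1 and Dkk2 bind Lrp5 and Lrp6. Dkk3 is a divergent relative whose place in the pathway is less clear. In lung development Wnt signals are needed for the lung to form and for its distal airways to branch and mature, and Smad1 carries signals of bone morphogenetic proteins (BMPs) to the nucleus.

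The title of the series names Wif1 as a target of Smad1. The 250 bases before the start of Wif1 and of Dkk1 are shown, chosen by representative probe set. On that measure these genes had the lowest and the highest difference among the 10, and their groups did not overlap. Other probe sets of Sfrp5 (0.75) and Sfrp1 (0.64) were higher than that of Dkk1. Both windows are RefSeq sequence of build GRCm38.p6, written 5′ to 3′ on the strand of the gene. The Wif1 window lies at chr10:121033754-121034003 (plus strand) and the Dkk1 window at chr19:30549497-30549746 (minus strand). Capitals mark matches, on either strand, to 3 short motifs: the Smad box CAGAC, a GC-rich motif GGAGCC reported for Smad1 and its relatives, and CTTTGA, the core of the TCF and LEF motif.
Wif1: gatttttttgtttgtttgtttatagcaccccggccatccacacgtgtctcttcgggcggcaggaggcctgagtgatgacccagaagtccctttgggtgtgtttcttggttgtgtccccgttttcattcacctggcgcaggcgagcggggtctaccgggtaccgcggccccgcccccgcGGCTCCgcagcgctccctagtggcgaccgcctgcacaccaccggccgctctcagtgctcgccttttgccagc
Dkk1: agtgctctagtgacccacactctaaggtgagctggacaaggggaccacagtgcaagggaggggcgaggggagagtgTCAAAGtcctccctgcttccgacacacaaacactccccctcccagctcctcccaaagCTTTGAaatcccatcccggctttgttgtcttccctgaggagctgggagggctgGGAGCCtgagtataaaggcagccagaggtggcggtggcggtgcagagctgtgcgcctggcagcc
The Wif1 window held 1 match, to the GC-rich motif on the opposite strand (GGCTCC), 67 to 72 bases before the start. The Dkk1 window held 1 match to the same motif 59 to 64 bases before the start, and 2 to the TCF and LEF core, at 112 to 117 and at 169 to 174 bases. No matches overlapped. Of 32807 promoter windows of this length, 42.2% held the Smad box, 26.0% the GC-rich motif and 13.8% the TCF and LEF core, so that each is common. RefSeq windows were at hand for 6 of the 10 genes. Among the other 4, Sfrp2 had the Smad box and the GC-rich motif once each, Sfrp5 had the Smad box once, Frzb had the GC-rich motif at 2 places and the TCF and LEF core at 1, and Dkk2 had none of the 3. These are matches of letters and say nothing of binding.

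The arrays were not alike in the range of their intensities. Median intensity ran from 69.96 to 77.8, the highest on CKO array 3, where the lower quartile was also the highest, at 37.64. The upper quartile of CKO array 3 was the lowest, at 170.3, against 222.3 to 283.8 on the other 5. That array also had an 18S ribosomal RNA signal of 2194, against 154 to 201, a beta-actin signal (3′ control probe set) of 5820, against 18450 to 20900, a ratio of 3′ to 5′ beta-actin signal of 1.56, against 1.21 to 1.39, and a median correlation of 0.883 with the other arrays, against 0.965 to 0.989. In pair 3 the median difference was 0.28 among the dimmest 15013 probe sets and -0.96 among the brightest 15012. The same medians were 0.14 and -0.30 in pair 1 and 0.02 and -0.02 in pair 2. The X-linked Xist was at 10.95 (log2) on CKO array 1, against 6.23 in its wild type partner, and the Y-linked Eif2s3y at 3.78, against 8.66. On CKO array 3 Xist was at 7.70, against 6.62 in its partner, and Eif2s3y at 7.06, against 8.71. In pair 2 they were at 6.34, against 6.07, and at 9.04, against 8.98. The genotype contrast of pairs 1 and 3 thus also spans a contrast in sex-linked genes, of the same direction and larger in pair 1. Pair 2 showed neither this nor the shift with brightness, and the values of the 10 genes are given by animal. All 7 markers of lung epithelium and all 7 of lung mesenchyme were above the array median on every array. The 3 probe sets of Smad1 itself differed by -0.28, -0.18 and 0.06 on average (limma, adjusted p = 0.696, 0.789 and 0.904). All 3 were higher in the CKO lung in pair 1 (0.08, 0.20 and 0.12) and in pair 2 (0.62, 0.59 and 0.53). They were lower in pair 3 (-1.52, -1.33 and -0.48), where bright probe sets were lower in general. Smad1 RNA in the whole lobe was thus not lower in the CKO lungs of pairs 1 and 2, a direction opposite to a loss. A whole lobe also holds cells outside the epithelium, to which the label confines the knockout. It is not known either whether these probe sets lie in the deleted part. They therefore do not settle the labels, and Smad1 CKO below means the lungs labelled so.

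Wif1 was lower in each Smad1 CKO lung than in its wild type partner, and no CKO lung reached the level of any wild type lung. Its intensity was 37.33, 64.02 and 27.65 in CKO lungs 1 to 3, against 111.4, 209.9 and 69.88 in wild type lungs 1 to 3. The groups did not overlap, although the lowest wild type lung (pair 3) lay close to the highest CKO lung (pair 2). The means were 43.0 ± 18.8 in CKO lungs and 130.4 ± 71.9 in wild type lungs (SD, n = 3 each). In both groups the animal of pair 2 was the highest and that of pair 3 the lowest.

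Wif1 differed by -1.55, -1.70 and -1.31 in pairs 1 to 3, with a mean of -1.52 (SE 0.19, 95% interval -1.99 to -1.05). This is a 2.87-fold lower intensity. By p in the limma fit it ranked 24 of 45037 probe sets (adjusted p = 0.367 over all of them). Wif1 therefore did not pass the threshold of 0.05 across the array, and neither did any of the other 9 genes. Only 0.00222% of all probe sets passed it as lower (1 probe set, not one of the 10 genes) and 0% as higher. In data simulated for this comparison the fit recovered 88.5% of planted log2 changes of 3, against 0% at a size of 1. Sizes between these were not planted. The simulated spread came from the wild type arrays alone, so it held neither CKO array 3 nor the shift with brightness. The place of Wif1 differed by pair: counted from the lowest difference it stood at 268 in pair 1, at 29 in pair 2 and at 5317 in pair 3, of 45037. In the brightness bin of Wif1 (1 of 30 bins, 1502 probe sets), the 10th percentile of differences was -0.80, -0.27 and -0.63 in pairs 1 to 3, and Wif1 lay below it in every pair. The CKO intensities were below the array median on all 3 arrays, and the wild type ones were above it on 2 of 3, so the fold is one between dim probe signals. No detection calls were used here.

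**Figure D1:**
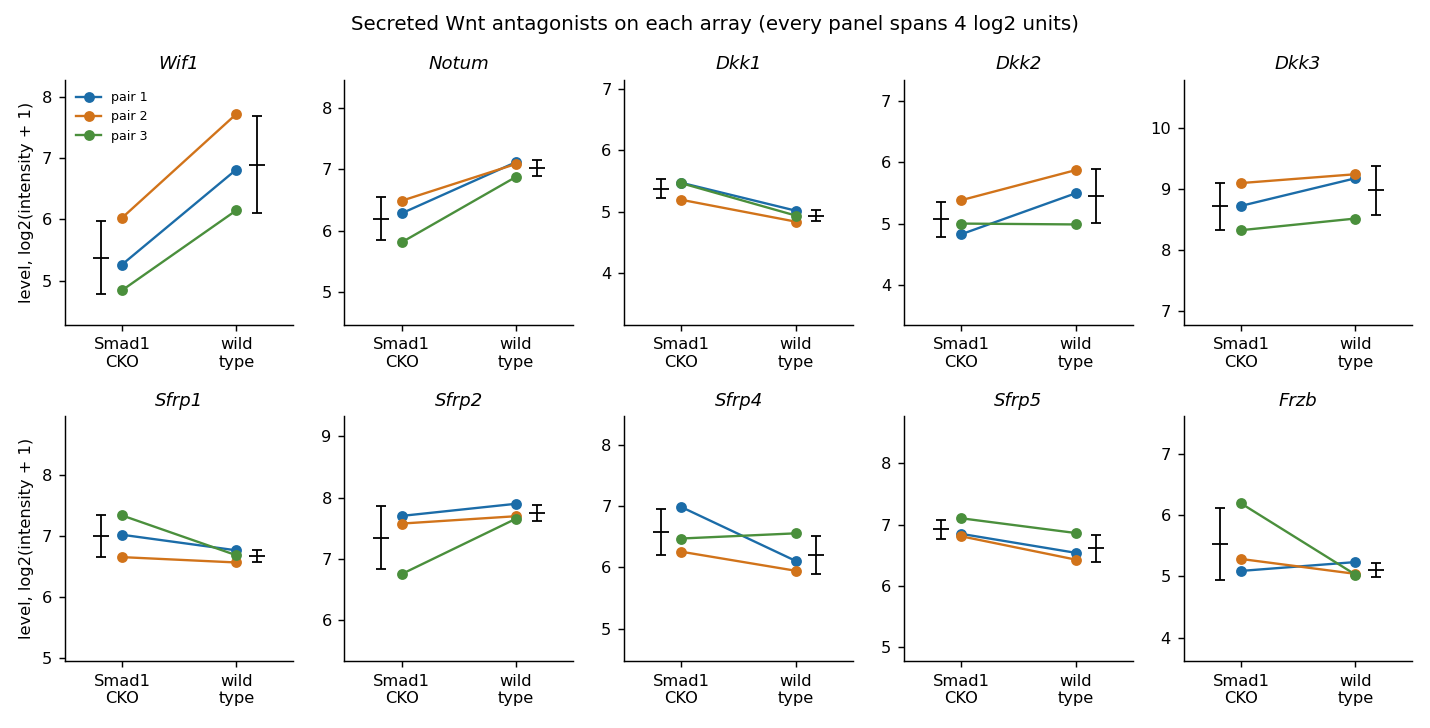
Level of each gene by its representative probe set, as log2(intensity + 1), on the 3 Smad1 CKO arrays (left) and the 3 wild type arrays (right), with a line for each pair and the group mean and SD as black bars. Every panel spans the same range of log2 units; Wif1 and Notum are lower in all 3 CKO lungs than in any wild type lung, and Dkk1 is higher in all 3.

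Notum was the other gene of the 10 whose CKO and wild type levels did not overlap in the lower direction. It had an intensity of 76.76, 88.64 and 55.01 in CKO lungs 1 to 3, against 137.8, 135.0 and 116.5 in wild type lungs 1 to 3. The highest CKO lung thus stayed below the lowest wild type lung, and the wild type lungs lay close together (129.8 ± 11.6, against 73.5 ± 17.1 in CKO lungs, SD, n = 3 each). The difference was -0.84, -0.60 and -1.07 in pairs 1 to 3, with a mean of -0.84 (SE 0.20, 95% interval -1.32 to -0.35), a 1.78-fold lower intensity. It ranked 325 of 45037 by p (limma, adjusted p = 0.367). In pair 2, where the array pair was most alike, 1.45% of probe sets had a difference as low or lower. Notum lay below the 10th percentile of its brightness bin in pairs 2 and 3 (-0.32 and -1.05) and above it in pair 1 (-1.03). Notum is itself induced by Wnt signalling in several tissues and then limits it.

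The Dickkopf genes differed in direction. Dkk1 had an intensity of 43.29, 35.53 and 43.08 in CKO lungs 1 to 3, against 31.30, 27.53 and 29.56 in wild type lungs 1 to 3. All 3 CKO lungs were above all 3 wild type lungs, by a small margin and at a brightness below the array median on all 6 arrays. The difference was 0.46, 0.36 and 0.53, with a mean of 0.45 (SE 0.18, 95% interval -0.0025 to 0.90, limma, adjusted p = 0.367). Probe sets of the same brightness were higher as well, with bin medians of 0.21, 0.03 and 0.35 in pairs 1 to 3. Dkk1 exceeded the 90th percentile of its bin in pair 2 (0.27) and stayed below it in pairs 1 and 3 (0.86 and 1.09). Its second probe set was dimmer still, between 11.81 and 14.41 on all 6 arrays, and differed by 0.05 ± 0.11 (SD, 3 pairs), with overlapping groups.

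Dkk2 had an intensity of 27.36, 40.70 and 31.01 in CKO lungs 1 to 3, against 44.09, 57.61 and 30.71 in wild type lungs 1 to 3. It was lower in CKO lungs 1 and 2 than in their partners and almost level in pair 3, and the groups overlapped. The mean difference was -0.38 (SE 0.22, 95% interval -0.92 to 0.15, limma, adjusted p = 0.379), and it was -0.24 without pair 1 and -0.58 without pair 3. All 6 values were below the array median. In pairs 1 and 2 Dkk2 lay below the 10th percentile of its bin (-0.67 against -0.50, and -0.49 against -0.21).

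Both probe sets of Dkk3 were among the brightest 15012 on the array. Its representative probe set read 420.6, 545.0 and 319.3 in CKO lungs 1 to 3, against 575.2, 602.4 and 364.4 in wild type lungs 1 to 3. Each CKO lung was below its partner, but the groups overlapped, and the difference was -0.45, -0.14 and -0.19 in pairs 1 to 3 (mean -0.26, SE 0.19, limma, adjusted p = 0.435), and -0.17 without pair 1. The other probe set gave -0.33, -0.07 and -0.86. Bright probe sets were lower in general in pairs 1 and 3, with bin medians of -0.33 and -0.90 for Dkk3. After cyclic loess normalization the mean difference was 0.18 and after quantile normalization 0.12, so the direction of Dkk3 depended on the scaling.

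Of the frizzled-related genes, Sfrp1 had the most probe sets, and they disagreed. The representative one read 128.8, 99.74 and 160.6 in CKO lungs 1 to 3, against 107.8, 93.81 and 101.9 in wild type lungs 1 to 3. It was higher in every CKO lung than in its partner, with the largest gap in pair 3, and the groups overlapped (mean difference 0.33, SE 0.20, limma, adjusted p = 0.393). Without pair 3 it was 0.17. A second probe set, whose suffix (x_at) marks probes that may also bind other transcripts, differed by 0.64 (SE 0.22, adjusted p = 0.367). The remaining 3 gave 0.14, -0.01 and -0.26. Over the 5 probe sets 3 differences were above 0 and 2 below, and the mean of the 5 gave 0.17.

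Sfrp2 read 207.4, 190.1 and 106.9 in CKO lungs 1 to 3, against 238.1, 206.7 and 200.9 in wild type lungs 1 to 3. CKO lung 3 stood far below the other 5, which lay close together, and the groups overlapped through CKO lung 1. The difference was -0.20, -0.12 and -0.90 in pairs 1 to 3 (mean -0.41, SE 0.23, limma, adjusted p = 0.380), and -0.16 without pair 3. In that pair the bin median at this brightness was -0.53.

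Sfrp4 read 125.8, 75.49 and 87.84 in CKO lungs 1 to 3, against 67.90, 60.66 and 93.20 in wild type lungs 1 to 3. CKO lung 1 was the highest of the 6, and pair 3 went the other way, so the groups overlapped. The difference was 0.88, 0.31 and -0.08 (mean 0.37, SE 0.24, limma, adjusted p = 0.408). The mean was 0.11 without pair 1 and 0.60 without pair 3.

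Sfrp5 read 114.5, 111.4 and 136.7 in CKO lungs 1 to 3, against 92.17, 85.28 and 115.6 in wild type lungs 1 to 3. Each CKO lung was above its partner by a similar step, and the groups overlapped because wild type lung 3 was above CKO lungs 1 and 2. The difference was 0.31, 0.38 and 0.24, with a mean of 0.31 and an SD of 0.07 over pairs, the smallest spread among the 18 probe sets (SE of the fit 0.18, limma, adjusted p = 0.384). Its second probe set read 127.9, 61.33 and 191.6 in CKO lungs, against 63.05, 63.26 and 78.38 in wild type lungs. That probe set was high in CKO lungs 1 and 3 only and level in pair 2 (mean 0.75, SE 0.30, adjusted p = 0.367).

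Frzb, also known as Sfrp3, read 33.06, 38.00 and 72.22 in CKO lungs 1 to 3, against 36.64, 31.95 and 31.69 in wild type lungs 1 to 3. The high value came from CKO lung 3 alone, and pair 1 went the other way. The mean difference of 0.42 (SE 0.29, limma, adjusted p = 0.421) was 0.05 without pair 3 and 0.70 without pair 1. The dimmer probe set of Frzb gave 0.45, 0.08 and 0.48. All values of both probe sets were below the array median.

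**Figure D2:**
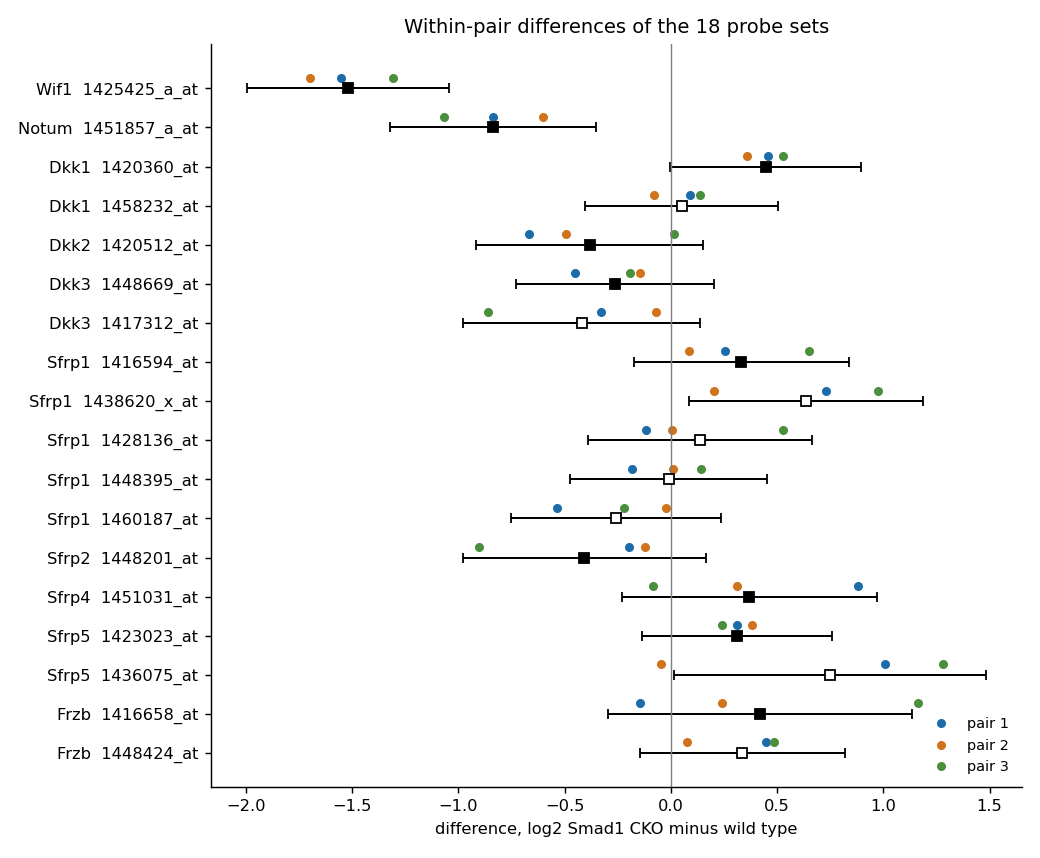
Difference in log2 Smad1 CKO minus wild type for each of the 18 probe sets (horizontal axis), with the mean and its 95% interval from limma as squares and bars (filled for the representative probe set) and the 3 pairs as coloured points. The intervals of Wif1 and Notum lie below 0, those of 1 probe set each of Sfrp1 and Sfrp5 lie above 0, and the other 14 include 0.

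Across the 18 probe sets both directions were about equally common. At an unadjusted p under 0.05, 2 were lower in CKO lungs (Wif1 and Notum), where 8.4% of all probe sets were, and 2 were higher (1 of Sfrp1 and 1 of Sfrp5), where 4.29% of all were. All 3 CKO arrays lay below all 3 wild type arrays for 2 probe sets, against 5.36% of all, and above them for 1 (Dkk1), against 4.7% of all. In the same direction in all 3 pairs, 6 were lower and 5 higher, against 24.1% and 22.7% of all probe sets. The median difference of the 10 genes was 0.02, against -0.09 over all genes, with a range of -1.52 to 0.45. By representative probe set, 5 of the 10 genes were below 0 and 5 above it.

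**Figure D3:**
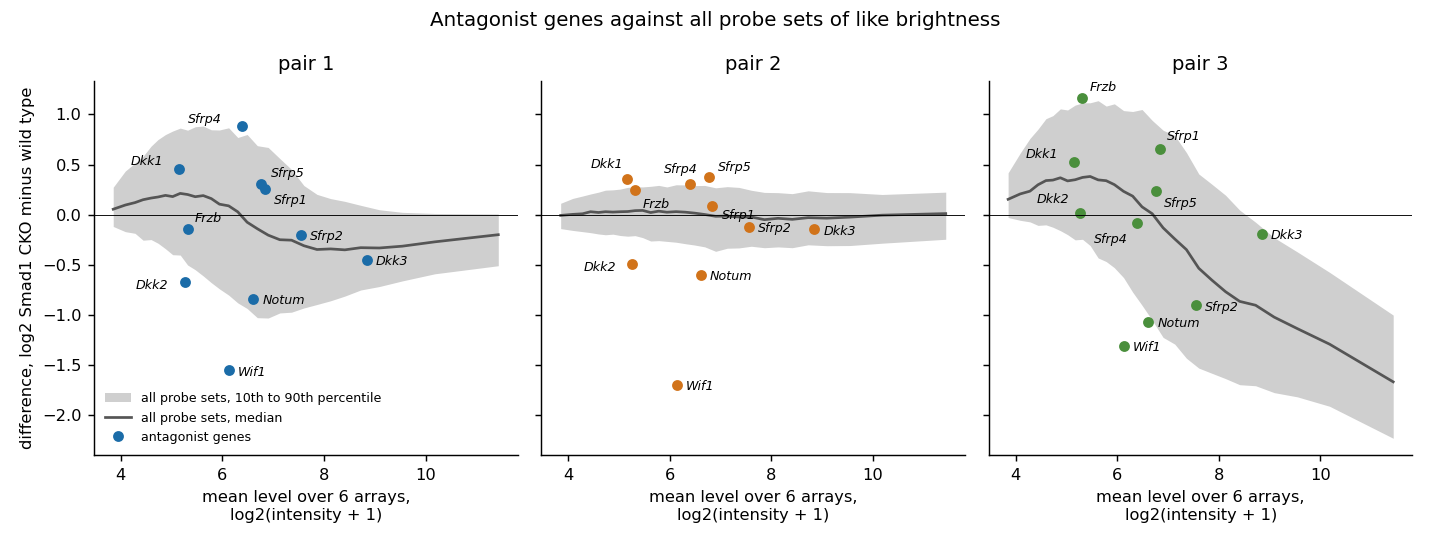
Difference in log2 Smad1 CKO minus wild type of the 10 genes in each pair (vertical axis) against mean level over all 6 arrays (horizontal axis, log2(intensity + 1)), over the median and the 10th to 90th percentile of all probe sets in 30 bins of brightness. Wif1 lies below the band in all 3 pairs, and in pair 3 the band itself bends down for bright probe sets.

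Over the 6 arrays the level of Notum followed that of Wif1 most closely among the other 9 genes, with a Pearson r of 0.912, and Dkk2 (0.891) and Dkk3 (0.808) came next. Sfrp5 (-0.946), Dkk1 (-0.911) and Sfrp1 (-0.840) ran the other way. These values describe 6 arrays that share the genotype contrast and the intensity range of CKO array 3, and are given without a test. Among 6619 genes with an SD of at least 0.5 over the arrays, those most like Wif1 were Trpc6, a calcium-permeable channel (0.982), Gimap8 (0.977), Mettl21e (0.975), the kinase gene Camk4 (0.974), Sema6a, a semaphorin (0.973), and Nostrin, which is known from endothelial cells (0.970). By the distance between the 3 pair differences, the nearest were Fabp12 (0.202), Rtkn2, a marker of alveolar type 1 cells (0.224), and Car4, a carbonic anhydrase of lung capillaries (0.226). Npy2r, Tbc1d4 and A2m followed at 0.428 to 0.443. All of these were picked for their likeness, so the closeness itself is no result.

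Of all genes, 29.3% were lower in the CKO lung in all 3 pairs and 21% were higher, and marker lists are read beside these shares. All 6 measured markers of alveolar type 2 cells were lower in all 3 pairs, and their summed intensity was 32005, 37635 and 9918.4 in CKO lungs 1 to 3, against 62651, 65843 and 54469 in wild type lungs 1 to 3. Their median difference was -1.27, -1.04 and -2.65 in pairs 1 to 3. All 7 alveolar type 1 markers were lower in all 3 pairs, with medians of -0.37, -0.33 and -1.88 and sums of 10986 to 35018 in CKO lungs and 41800 to 45184 in wild type lungs. All 6 endothelial markers were lower too, with medians of -0.72, -0.54 and -1.75 and sums of 2315.9 to 8171.4 in CKO lungs and 8501.2 to 12054 in wild type lungs. These 3 lists were thus lower in pair 2 as well, and the gap was widest in pair 3.

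For the other lists, apart from the genes of other organs, the gap lay mostly in pair 3 or the count was near the share of all genes. Of the 7 markers of lung epithelium in general 4 were lower in all 3 pairs, with medians of -0.12, -0.0027 and -2.09 and sums of 9593.8 to 38091 in CKO lungs and 41602 to 46635 in wild type lungs. Of the 7 mesenchymal markers 5 were lower in all 3 pairs, with medians of -0.28, -0.22 and -1.70 and sums of 6799.8 to 28535 in CKO lungs and 24527 to 31195 in wild type lungs. Of the 5 mesothelial markers 2 were lower in all 3 pairs, Msln and Upk3b, and the medians were -0.40, -0.31 and 0.17. Their sums of 1010.5 to 1965.5 in CKO lungs and 2875.7 to 4256.3 in wild type lungs rest mostly on Msln, with 447.9 to 1016 and 2099 to 2965. Counts were 2 of 5 lower among club and ciliated cell markers, 1 of 6 higher among smooth muscle markers, 1 of 5 lower among blood and immune markers, and 1 lower and 1 higher of 6 among cartilage markers. Of the 7 genes of other organs 4 were higher in all 3 pairs, against 21% of all genes, with medians of 0.52, 0.08 and 0.68 in pairs 1 to 3. Of these 4, Nppa was among the dimmest 15013 probe sets, and Alb, Tg and Ins2 were among the middle 15012. Probe sets of these classes had medians of 0.14, 0.02 and 0.28 (dimmest) and 0.03, 0.02 and 0.17 (middle) in pairs 1 to 3. The sums over the 7 genes were 1080.6 to 1250.5 in CKO lungs and 916.05 to 1262.4 in wild type lungs. The part of these shifts in the levels of Wif1 and the other 9 genes was not tested.

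The rest of the Wnt pathway was described through lists of genes, by representative probe set and at an unadjusted p under 0.05, a level at which 9.96% of all genes were lower and 4.96% higher. No gene of these lists passed after adjustment over all probe sets, and those counted here had an adjusted p of 0.367 each. Differences also shifted with brightness. Over all 3 pairs the median was 0.17 among the dimmest 15013 probe sets, 0.09 among the middle 15012 and -0.45 among the brightest 15012. Of 7 other secreted antagonists, 0 were lower and 1 was higher, and the median difference was 0.33. Sost (sclerostin), which binds Lrp5 and Lrp6, was the higher one, with 103.1, 31.11 and 80.75 in CKO lungs 1 to 3, against 28.11, 32.95 and 34.79 in wild type lungs 1 to 3. It was high in CKO lungs 1 and 3 and level in pair 2 (0.98 ± 0.98, SD, 3 pairs, limma, adjusted p = 0.367). Dkkl1 (0.39), Sostdc1 (0.38) and Cer1 (0.33) did not pass.

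Target and feedback genes of the pathway are read as its output. Of 14 measured, 5 were lower (35.7%) and 1 was higher, with a median of -0.34. Apcdd1, a membrane protein that itself inhibits Wnt signalling, read 229.8, 395.0 and 158.1 in CKO lungs 1 to 3, against 539.0, 707.3 and 483.4 in wild type lungs 1 to 3. The groups did not overlap, and the difference was -1.22 ± 0.38 (SD, 3 pairs, limma, adjusted p = 0.367), with 5 of its 6 probe sets lower. Tnfrsf19 read 462.0, 909.9 and 358.3 in CKO lungs, against 1061, 1428 and 1158 in wild type lungs, again without overlap (-1.18 ± 0.52, limma, adjusted p = 0.367). Axin2, a feedback inhibitor within the cell and a common measure of Wnt activity, read 481.7, 501.3 and 211.9 in CKO lungs, against 635.3, 690.8 and 429.4 in wild type lungs. It was lower in every pair with overlapping groups (-0.63 ± 0.34, adjusted p = 0.367). Nkd1, another feedback inhibitor, was at -0.84 ± 0.71 (adjusted p = 0.367), and at -0.34 in pair 2. Lef1 (-0.51 ± 0.14) was the fifth lower gene and Rnf43 (0.50 ± 0.13) the higher one, both named after their values were seen. Apcdd1, Tnfrsf19, Axin2 and Nkd1 were among the brightest 15012 probe sets, whose median difference was -0.45. Lef1 and Rnf43 were among the middle 15012, whose median was 0.09. In checks added after the data were seen, 2 genes were lower and 2 higher without pair 3 (14.3% each, against 6.19% and 3.53% of all genes). Without pair 1, 2 were lower (14.3%, against 1.76%) and 0 higher (against 0.17%). After cyclic loess normalization 3 were lower (21.4%, against 6.25%) and 1 higher (7.14%, against 8.82%), with a median of 0.0033.

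Among 17 receptors and co-receptors 4 were lower (23.5%) and 0 higher, with a median of -0.42. All 4 lower ones were among the brightest 15012 probe sets, whose median difference was -0.45. Without pair 1, 1 was lower (5.88%, against 1.76% of all genes), and without pair 3, 4 were (23.5%, against 6.19%). After cyclic loess normalization 2 were lower (11.8%, against 6.25%) and 1 higher (5.88%, against 8.82%), with a median of 0.0038. The 4 lower ones before these checks were Ror1, a receptor for Wnt proteins outside the beta-catenin route (-1.20 ± 0.81), Lrp4 (-0.86 ± 0.55), Fzd7 (-0.70 ± 0.62) and Fzd3 (-0.61 ± 0.42), with SDs over 3 pairs. In pair 2 alone these 4 ran from -0.43 to -0.15. Probe sets of Ror1, Fzd3 and Fzd7 disagreed in direction. Lrp5 and Lrp6, named because Dkk1 and Dkk2 bind them, were at -0.51 and -0.33 and did not pass. Of the 19 Wnt ligands 1 was lower, Wnt2 (-0.72 ± 0.63), and 2 were higher, Wnt16 (0.85 ± 0.46) and Wnt1 (0.75 ± 0.63, with 0.04 in pair 2), and Wnt2b at 0.57 did not pass. No ligand was lower without pair 1, without pair 3 or after cyclic loess normalization. In these checks 0, 1 and 4 ligands were higher, against 0.17%, 3.53% and 8.82% of all genes. Wnt2 is a ligand of the lung mesenchyme. Of 10 agonists and secretion genes Rspo1, which amplifies Wnt signals at the receptor, was lower (-0.94 ± 0.58, with -0.40 in pair 2), while Rspo2 (0.71), Rspo4 (0.46) and Rspo3 (0.38) did not pass. None of the 13 intracellular components passed, with Bcl9, Axin1 and Apc at -0.53 to -0.52 and Dvl3 at 0.56. Of 10 genes of BMP signalling and response 1 was lower, Smad5 (-0.57 ± 0.37, with -0.18 in pair 2), and Smad4 (-0.65), Id4 (0.57) and Id2 (-0.38) did not pass. Without pair 1, 0 of these genes were lower and 0 higher. Without pair 3, and also after cyclic loess normalization, 0 were lower and 3 higher (30%, against 3.53% and 8.82% of all genes). The median of the BMP list was -0.03 as reported and -0.25 without pair 1. It was 0.12 without pair 3 and 0.34 after cyclic loess normalization.

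**Figure D4:**
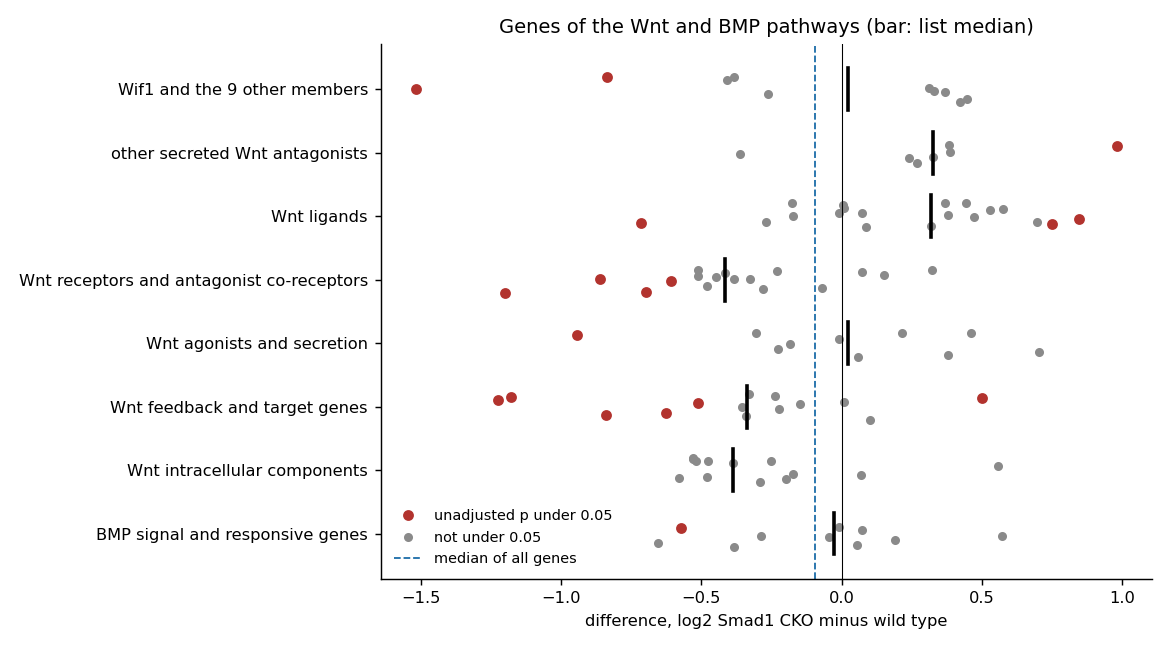
Difference in log2 Smad1 CKO minus wild type (horizontal axis) of each gene in the lists of the Wnt and BMP pathways, with red points for an unadjusted limma p under 0.05, black bars for list medians and a dashed line for the median of all genes. Wif1 is the leftmost point of all lists, and the 10 antagonists spread to both sides of 0.

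The differences of Wif1 and Notum kept their direction however the values were treated. Over 13 alternatives, among them both further normalizations, every left-out pair and the fit without pairs, Wif1 ran from -1.62 to -1.24 and Notum from -0.95 to -0.64. Dkk1 stayed above 0 in its 13, from 0.25 to 0.49. Without pair 3, the pair of CKO array 3, Wif1 was at -1.62 (limma, adjusted p = 0.0535), and without pair 1 at -1.50 (adjusted p = 0.781). When CKO arrays 1 and 2 were set against all 3 wild type arrays with no pairing, Wif1 was at -1.25 (adjusted p = 0.917).

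**Figure D5:**
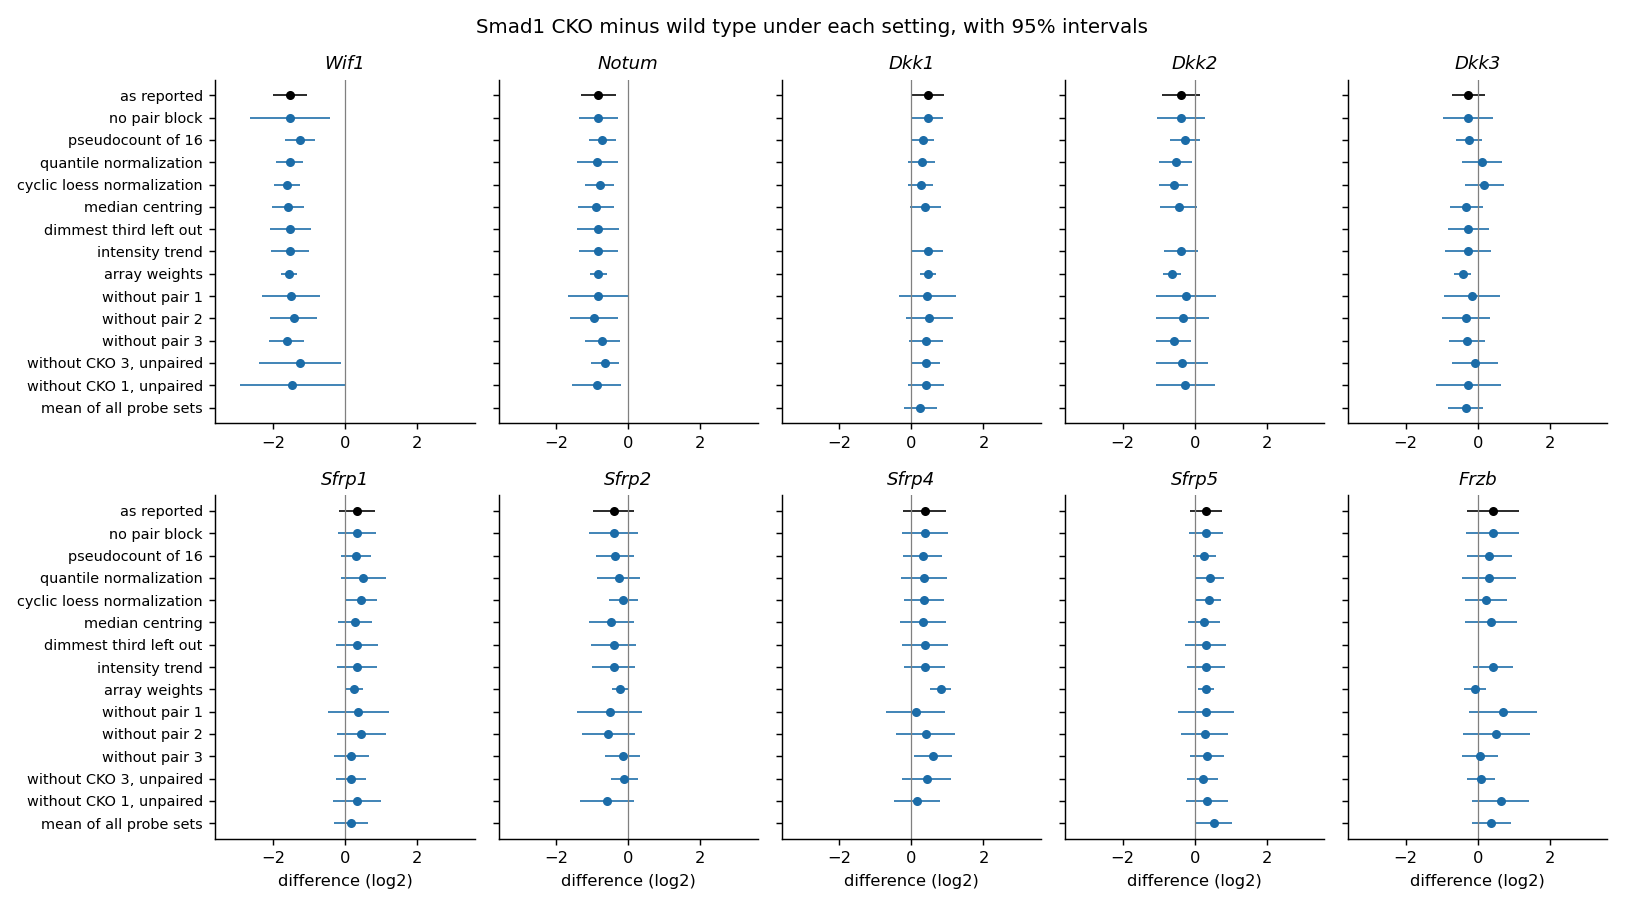
Difference in log2 Smad1 CKO minus wild type (horizontal axis) with its 95% interval for each of the 10 genes under every setting, the reported one in black and alternatives in blue. The points of Wif1 and Notum stay left of 0 in every row shown, while Dkk3 and Frzb fall on both sides.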

How the data were processed

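The deposited values are intensity on a linear scale, 1 value per probe set and array, made with RMA per the submitters' processing notes; its software, version and settings are not stated there. Values were turned into log2(value + 1), a pseudocount that slightly lowers the fold of dim signals, and 64 control probe sets were left out. Of 45037 probe sets, 34945 had 1 gene symbol, 932 had several and were not named, and 9160 had none there. Matching by gene identifier found 34741 in a GRCm38.p6 gene table, with 0 symbols changed.

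The 2-sided test of genotype used limma 3.58.1 (lmFit, eBayes; R 4.3.3) with the pair as a block and Benjamini-Hochberg adjustment over all 45037 probe sets. Pairs come from the design text and from a letter shared by array names. Deviations from group means correlated at 0.258, 0.604 and 0.598 within the 3 pairs, and at 0.215 or lower otherwise. Pair 1 was thus close to the highest value outside the pairs. Deviations from a mean of 3 arrays sum to 0, so these correlations depend on one another and do not settle the pairing. With 3 arrays per group the precision is limited, and p-values measure the spread between these animals only. The fit was tested on simulated data. The 10 genes and all lists were chosen with earlier results of these data known, and motifs with the sequences in view. Named genes outside the 10 are the 4 of each list with the smallest p and the 6 most like Wif1 by each measure. Lrp5, Lrp6, Lef1 and Rnf43 fall outside this rule and were added after their values were seen, and Smad1, sex-linked, control and marker genes serve as checks. No list was tested as a set.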

Additional observations from a re-analysis of the deposited data

How the results depend on the processing

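Wif1 kept its direction in all 13 alternatives but crossed the adjusted threshold in 2: with an intensity trend in the prior it was at -1.52 (limma, adjusted p = 0.0423), and with array weights at -1.55 (adjusted p = 0.000974). Over all alternatives its adjusted p ran from 0.000974 to 0.917. Array weights called 23234 probe sets at the adjusted threshold, 51.6% of all. At an unadjusted p under 0.05 they gave 6 of the 18 antagonist probe sets as lower and 7 as higher, against 32.1% and 26.4% of all. That setting thus separates little, and the cause was not tested. Over all probe sets the count past the adjusted threshold, 1 as reported, was 0 without the pair as a block, with a pseudocount of 16, after quantile normalization and after median centring. It was 2 after cyclic loess, 17 without the dimmest 15013 probe sets, where fewer probe sets were tested, and 32 with the trend. Leaving out a pair gave 0 to 28, and leaving out CKO array 1 or 3 and the block by pair together gave 0 to 1. The count of antagonist probe sets at an unadjusted p under 0.05, 4 as reported, was 3 without the block by pair, 2 without pair 1, and 1 without CKO array 1 and the block together. Of all probe sets, 8.4% were lower and 4.29% higher as reported. In these fits the shares fell to 2.79% and 0.862%, to 1.32% and 0.138%, and to 1.42% and 0.266%. The count was 5 after quantile normalization (5.31% and 3.91% of all), 6 after cyclic loess (7.45% and 6.73%) and 6 with the trend (8.83% and 9.13%). Over the fits that leave out arrays it ran from 1 to 4. Without the block by pair, Wif1 was at -1.52 (adjusted p = 0.586). Dkk3 turned to 0.12 after quantile normalization and 0.18 after cyclic loess, and Frzb turned to -0.073 with array weights. Dkk1, Dkk2 and Frzb are among those dimmest probe sets and gave no value without it. Dim signal limits Dkk1, Dkk2, Frzb and the CKO level of Wif1.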
